A study of Mus musculus with 18 samples.

Results

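The comparison is of bone marrow-derived macrophages labelled as Ldha knockout (KO) with wild-type (WT) macrophages, both left untreated. It covers 6 of the 18 RNA sequencing libraries of the study. The 3 KO libraries and 3 WT libraries were chosen by their labels alone, as the untreated macrophages of each genotype, and each library came from a separate animal by its animal code. Marrow cells of both genotypes were cultured for 7 days with 15% serum and 30 ng/mL M-CSF, the growth factor that turns marrow progenitors into macrophages, and received no polarizing cytokine. The other 12 libraries came from the same 6 animals after 24 h with interferon gamma (IFN-gamma) or interleukin 4 (IL-4), and are used below only to set the untreated difference beside them. The labels give the genotype as LDHA KO or WT and the study's title calls the expression macrophage-specific. The strain, age, sex, allele and deleting enzyme are not given in the labels.

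Lactate dehydrogenase A, the product of Ldha, turns pyruvate into lactate at the end of glycolysis and returns NADH to NAD+, which glycolysis needs to go on. Macrophages use this route heavily when they are activated. Several enzyme systems around it work with NADPH rather than NADH. The oxidative pentose phosphate pathway and malic enzyme make NADPH, and glutathione, thioredoxin and peroxiredoxin enzymes spend it on removing peroxides. Many genes of these systems are targets of the transcription factor NRF2, which is held down by KEAP1 and, when released, binds antioxidant response elements in promoters and enhancers.

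Levels are normalized counts, that is, reads per gene that the authors divided by 1 size factor per library, and they are comparable for 1 gene between libraries but not between genes. Changes are log2 differences of KO minus WT ± SE, on the scale of log2(normalized count + 1), from limma. A gene was called at a p-value under 0.05 after Benjamini-Hochberg adjustment over the 14288 genes tested. The untreated libraries held 30.3 to 33.7 M reads in KO and 28.9 to 42.2 M reads in WT, and 1.95 to 2.17% of normalized counts came from the mitochondrial genome across the 6 libraries. Summed macrophage markers without Lyz2 were 480920, 514360 and 508080 in the KO libraries and 514820, 529170 and 532500 in the WT libraries (2-sided exact permutation test, p = 0.1, the smallest that 3 against 3 can give). Markers of stromal cells and fibroblasts, which marrow cultures can carry, summed to 1994, 2476 and 719 in KO replicates 1 to 3, and to 311, 839 and 456 in WT replicates 1 to 3 (exact permutation p = 0.2). All 15 stromal markers tested had a positive log2 change, with a median of 1.56. None was called by limma, 10 had an unadjusted p under 0.05, and edgeR and DESeq2 called 2 each. Xist was high in all 6 libraries, at 16365 to 18330 in KO and 19776 to 22656 in WT.

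Ldha itself, on chromosome 7 (GRCm38, 46841475 to 46855627), was lower in every KO library. Its level was 2128, 2261 and 2591 in the KO libraries, against 12204, 11939 and 10712 in the WT libraries. The KO mean was 20.03% of the WT mean, a change of -2.32 ± 0.0761 (limma, adjusted p = 1.38e-12). The source of the remaining Ldha reads in the KO libraries was not tested. Ldhb, which encodes the other main subunit of the enzyme, had 144, 130 and 165 in KO and 222, 189 and 167 in WT libraries and was not called (-0.39 ± 0.176, adjusted p = 0.375).

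A larger difference lay in Lyz2, the lysozyme gene of macrophages, on chromosome 10 (117277331 to 117282321). It had 689, 873 and 790 normalized counts in the KO libraries, against 700320, 622870 and 571540 in the WT libraries. The KO mean was 0.124% of the WT mean, a change of -9.65 ± 0.102 (limma, adjusted p = 1.18e-20). The Lyz2 locus carries the Cre gene in the LysM-Cre strain commonly used to delete genes in macrophages, and whether it did so here was not tested. Lyz1, a near-identical neighbour whose reads may be shared with Lyz2, had 165, 180 and 196 in KO and 384, 340 and 319 in WT libraries (-0.94 ± 0.186, adjusted p = 0.0104), a call that ended without KO replicate 1 or WT replicate 1 (adjusted p = 0.0551 to 0.0666). The lower Ldha, the lower Lyz2 and other differences between the KO and WT animals cannot be told apart in what follows.

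Of the 14288 genes, 283 were called (1.98%), 208 higher (1.46%) and 75 lower (0.525%) in KO. The increases were the larger ones, with a median change of 0.93 among the genes called higher and -0.62 among the genes called lower. At least 1 log2 unit separated the genotypes for 97 of the genes called higher and 18 of those called lower, and at least 2 units for 32 and 4 of them. The 3 KO and 3 WT libraries did not overlap for all 208 genes called higher and for 74 of the 75 called lower, against 4302 (30.1%) of all genes tested. Over all genes the median change was 0.006, and 90% of genes lay between -0.45 and 0.70.

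The spread was estimated over all 18 libraries, and the number of calls depended on it. From the 6 untreated libraries alone, 971 genes were called, 616 higher and 355 lower, which lowered the share of calls that were higher to 63.4%, against 73.5% in the fit of 18. Without any 1 of the 6 libraries the fit of the remaining 17 called 124 to 209 genes. Of the 283 genes, 90 were called whichever untreated library was left out, 75 of them higher and 15 lower. These 90 genes had an adjusted p of at most 0.006303 with all libraries. The 193 genes lost without at least 1 library had an adjusted p of at least 0.006294. The check thus nearly repeated the order of the p-values and is not separate support for a call. Nor does it tell dependence on a library from the smaller number of samples. Where a gene named below is not among the 90, the libraries whose removal ended its call are given with it.

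**Figure D1:**
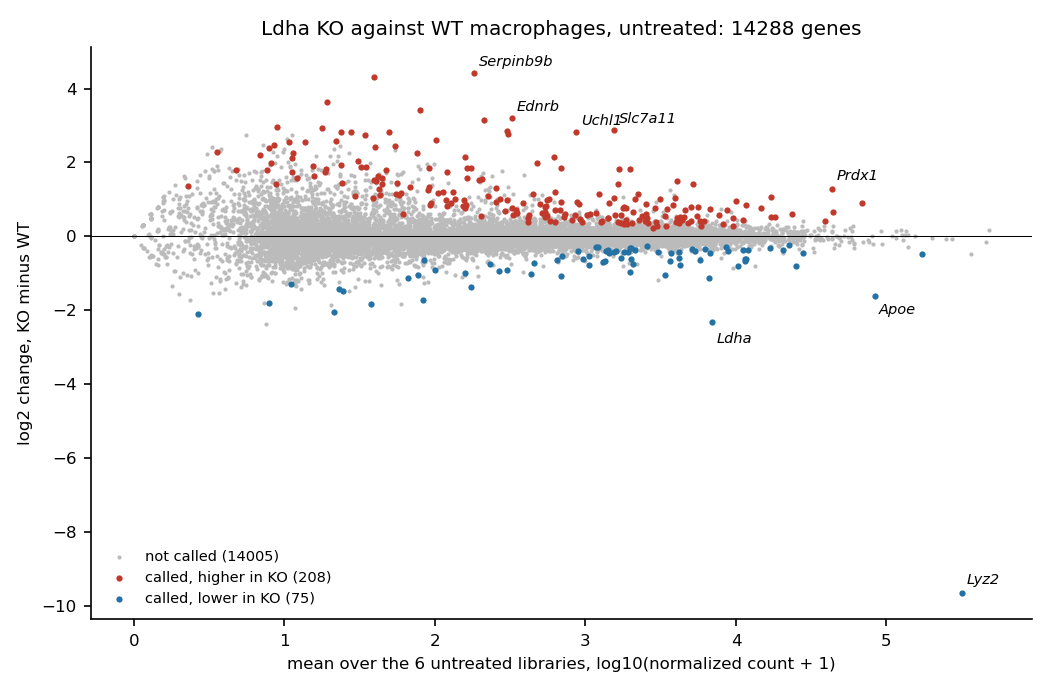
Log2 change of KO minus WT in untreated macrophages (vertical) against the mean level over the 6 libraries as log10(normalized count + 1) (horizontal), 1 point per gene. The 208 genes called higher in KO reach a change of 4.42 (Serpinb9b), and among the 75 called lower, Lyz2 at -9.65 and Ldha at -2.32 have the lowest values.

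Antioxidant genes gave more calls than any other gene list examined. The lists were chosen with earlier results of these data known, so this ranking is not an independent test. Among all genes tested 1.46% were called higher. Of 41 genes on a list of NRF2 targets and antioxidant enzymes, 40 were in the table and tested, and 21 were higher in KO, 0 lower and 19 not called. The median change over the 40 genes was 0.51, and 38 of them had a positive change, against 7353 of the 14288 genes tested. The count was 15 to 19 when 1 untreated library was left out, 28 in the untreated libraries alone, and 22 with a score of the 15 stromal markers as a covariate.

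Promoters of 4 of these genes are shown first, because they hold the letters of the antioxidant response element and their genes were called whichever library was left out. Each runs 5′ to 3′ on the strand of the gene, from 250 bases before to 50 bases after the RefSeq start of transcription (RefSeq, GRCm38.p6), with the match to TGACNNNGC, on either strand, in capitals. The windows are chr4:116685349-116685648 on the plus strand for Prdx1, chr9:86695865-86696164 on the minus strand for Me1, chr3:122245307-122245606 on the plus strand for Gclm and chr2:152105274-152105573 on the plus strand for Srxn1.
Prdx1: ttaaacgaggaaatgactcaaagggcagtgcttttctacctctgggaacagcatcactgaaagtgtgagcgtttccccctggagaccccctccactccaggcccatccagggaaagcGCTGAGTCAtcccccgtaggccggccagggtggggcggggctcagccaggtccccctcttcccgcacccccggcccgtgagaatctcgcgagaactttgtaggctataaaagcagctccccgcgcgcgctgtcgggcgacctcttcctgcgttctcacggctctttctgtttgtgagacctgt
Me1: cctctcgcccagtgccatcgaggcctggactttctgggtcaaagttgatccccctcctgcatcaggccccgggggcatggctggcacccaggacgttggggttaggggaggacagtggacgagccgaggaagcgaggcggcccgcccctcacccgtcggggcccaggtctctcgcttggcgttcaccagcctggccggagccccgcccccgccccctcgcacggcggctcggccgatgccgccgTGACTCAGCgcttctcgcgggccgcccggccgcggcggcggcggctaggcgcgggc
Gclm: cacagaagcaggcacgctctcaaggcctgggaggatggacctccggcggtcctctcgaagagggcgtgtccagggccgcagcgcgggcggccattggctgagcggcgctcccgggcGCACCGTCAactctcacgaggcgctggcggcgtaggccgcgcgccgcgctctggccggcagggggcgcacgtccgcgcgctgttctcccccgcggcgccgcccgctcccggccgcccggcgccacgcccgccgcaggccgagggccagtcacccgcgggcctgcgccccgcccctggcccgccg
Srxn1: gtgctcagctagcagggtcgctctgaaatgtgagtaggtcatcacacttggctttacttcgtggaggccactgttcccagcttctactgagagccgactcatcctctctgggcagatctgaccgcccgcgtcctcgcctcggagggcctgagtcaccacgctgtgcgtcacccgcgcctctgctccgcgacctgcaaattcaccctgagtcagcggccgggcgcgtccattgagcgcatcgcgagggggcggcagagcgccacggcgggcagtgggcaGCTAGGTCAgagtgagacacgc
The match began 133 bases before the start in Prdx1, 6 bases before it in Me1 and 134 bases before it in Gclm, and 28 bases after it in Srxn1. Of the 21 list genes called higher, 17 had a promoter entry and 9 of these (52.9%) held a match, and of the 19 not called, 15 had an entry and 3 (20%) held one. Among all genes called higher, 45 of 172 with an entry (26.2%) held a match, among all called lower 9 of 58 (15.5%), among all genes tested 1742 of 10231 (17.03%), and among all promoters listed 4071 of 32851 (12.4%). These shares describe letters in a window and were not tested.

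Genes that make or regenerate glutathione or bring in its building blocks were among the 21. Slc7a11, the cystine importer, had 3160, 2352 and 2690 normalized counts in the KO libraries, against 435, 342 and 344 in the WT libraries (2.87 ± 0.341, limma, adjusted p = 0.00012). Gclm, the modifier subunit of the enzyme that starts glutathione synthesis, had 5967, 5281 and 6848 in KO and 2226, 1915 and 2214 in WT libraries (1.50 ± 0.141, adjusted p = 5.73e-06). Gclc, its catalytic subunit, had 1459, 1376 and 1431 in KO and 876, 885 and 987 in WT libraries (0.64 ± 0.0847, adjusted p = 0.000388). The catalytic subunit thus changed less on the log2 scale than the modifier subunit, and for both genes every KO library was above every WT library. Gsr, which reduces oxidized glutathione, had 2187, 2256 and 2469 in KO and 1361, 1248 and 1341 in WT libraries (0.81 ± 0.0677, adjusted p = 2.01e-06).

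Peroxide-removing enzymes rose as well. Prdx1, a peroxiredoxin, had 62450, 54533 and 67443 in the KO libraries, against 25288, 25900 and 24908 in the WT libraries (1.27 ± 0.114, limma, adjusted p = 3.89e-06). Srxn1, which repairs overoxidized peroxiredoxins, had 7787, 7038 and 7976 in KO and 2992, 2748 and 2752 in WT libraries (1.42 ± 0.109, adjusted p = 6.12e-07). Cat, catalase, had 22076, 20910 and 25830 in KO and 11135, 10460 and 11415 in WT libraries (1.05 ± 0.0936, adjusted p = 3.89e-06). KO means of these 3 genes were 2.42, 2.69 and 2.08 times the WT means, and in each the KO libraries lay clear of the WT libraries. Txnrd1, the thioredoxin reductase, was tighter still, with 8555, 8280 and 8410 in KO and 5169, 4923 and 5025 in WT libraries (0.74 ± 0.117, adjusted p = 0.00177). Prdx6 had a similar change of 0.78 ± 0.18 but a call at adjusted p = 0.0299 that ended without any 1 of the 6 libraries (adjusted p = 0.0603 to 0.132). Its KO libraries were at 3753, 3448 and 3834 and its WT libraries at 2208, 2112 and 2113.

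Quinone, haem and conjugation enzymes were the third group of the list. Nqo1, a quinone reductase and a standard NRF2 reporter, had 559, 374 and 674 in the KO libraries, against 90.6, 59.5 and 79.7 in the WT libraries (2.77 ± 0.257, limma, adjusted p = 5.34e-06). The lowest KO library was well above the highest WT library. Hmox1, which breaks down haem, had 5667, 5174 and 6348 in KO and 3576, 3436 and 3340 in WT libraries (0.73 ± 0.104, adjusted p = 0.00073). Blvrb, a biliverdin reductase, changed by 0.50 ± 0.094, a call that ended without KO replicate 3 (adjusted p = 0.053). Of 18 glutathione transferases tested, 2 were higher and 0 lower. Gstp1 had 217, 194 and 209 in KO and 100, 117 and 96.8 in WT libraries (0.98 ± 0.168, adjusted p = 0.00371), and Gsta3 had 263, 190 and 314 in KO and 81.8, 51.4 and 41.5 in WT libraries (2.14 ± 0.403, adjusted p = 0.00775). The Gsta3 call ended without KO replicate 3 or WT replicate 3 (adjusted p = 0.0546 to 0.0555).

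The rest of the list did not follow uniformly. The regulator itself, Nfe2l2 (NRF2), had 13843, 14877 and 15116 in KO and 14806, 14497 and 14188 in WT libraries (0.01 ± 0.0842, limma, adjusted p = 0.988), and its inhibitor Keap1 changed by 0.16 ± 0.0728 (adjusted p = 0.385). The superoxide dismutase Sod1 had 4574, 4590 and 4570 in KO and 4858, 4704 and 4130 in WT libraries, and the groups overlapped. Nfe2l2, Keap1 and Sod1 were picked after their values were seen.

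**Figure D2:**
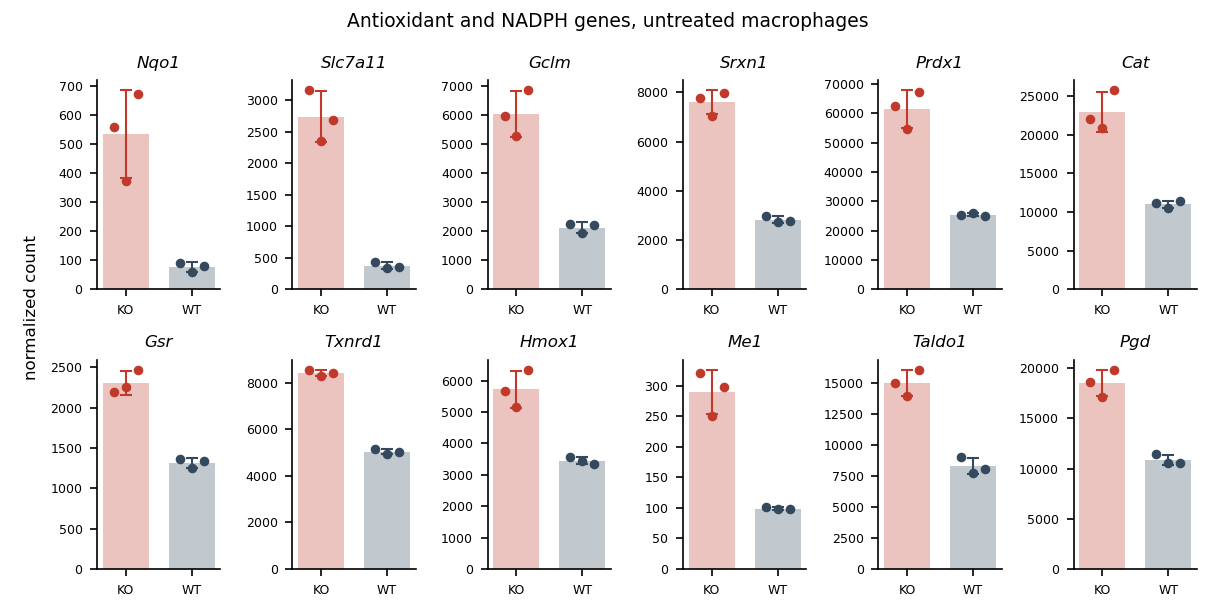
Normalized counts of 12 antioxidant and NADPH genes in untreated macrophages, KO left of WT in each panel. Points are the 3 libraries per group, bars are means and error bars are SD. In all 12 panels the lowest KO library is above the highest WT library, from Nqo1 (KO mean 536, WT mean 76.6) to Txnrd1 (KO mean 8415, WT mean 5039).

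Some enzymes that supply NADPH were higher, all of them also members of the antioxidant list. On a list of 16 pentose phosphate and NADPH enzymes, 4 were higher and 0 lower, and the same number was called whichever library was left out. G6pdx, the entry enzyme of the pathway, had 6083, 6533 and 7074 normalized counts in KO and 4820, 4949 and 4909 in WT libraries (0.42 ± 0.067, limma, adjusted p = 0.00179). Pgd, the second NADPH-producing step, changed by 0.77 ± 0.106 and Taldo1, in the non-oxidative branch, by 0.86 ± 0.106 (adjusted p = 0.000462 and 0.000174). Me1, cytosolic malic enzyme, had 321, 250 and 299 in KO and 101, 97.4 and 97.5 in WT libraries (1.54 ± 0.128, adjusted p = 2.01e-06). Tkt, which works beside Taldo1 in the same branch, had 13678, 13710 and 13215 in KO and 12654, 13592 and 13390 in WT libraries, and was not called (0.04 ± 0.0958, adjusted p = 0.955). The median of the list was 0.06, and 5 of the 16 genes had a negative change.

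Within glycolysis 6 of 24 genes were higher and 1 lower, with a median of 0.19. Among all 14288 genes tested 1.46% were higher and 0.525% lower, and 7353 had a positive change. These are the background for the counts of this list and of those below. Pkm, pyruvate kinase, had 54696, 51661 and 55466 in the KO libraries, against 35293, 35160 and 32206 in the WT libraries (0.66 ± 0.11, limma, adjusted p = 0.00308). Slc2a1, the glucose transporter GLUT1, had 1932, 1767 and 2000 in KO and 1308, 1346 and 1134 in WT libraries (0.59 ± 0.0917, adjusted p = 0.00156). Both were called whichever library was left out. The other calls were smaller: Pfkp (0.41), Pgk1 (0.44), Aldoa (0.42) and Pgam1 (0.38) were higher and Pfkfb4, which raises an activator of phosphofructokinase, was lower (-0.38). Those 5 calls ended, with adjusted p of up to 0.199, without KO replicate 1, KO replicate 3 or WT replicate 3, and all but that of Pgk1 also without WT replicate 2, Aldoa in addition without KO replicate 2. With the stromal covariate Aldoa and Pgam1 were not called (adjusted p = 0.09004 and 0.137). The glycolysis count was therefore 2 to 6 higher genes over the 6 fits.

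The genes around lactate and pyruvate themselves did not pass. None of 19 genes of lactate transport and pyruvate handling was called by limma, with a median of -0.02, while 4 had an unadjusted p under 0.05 and edgeR and DESeq2 called 2 each. Slc16a3, the lactate exporter MCT4, had 2634, 2566 and 3385 in KO and 2062, 1600 and 1533 in WT libraries (0.73 ± 0.189, adjusted p = 0.0582), and Slc16a7, the transporter MCT2, had 1323, 1527 and 1527 in KO and 1905, 1885 and 2245 in WT libraries (-0.46 ± 0.129, adjusted p = 0.0833). For neither gene did the genotypes overlap, and from the untreated libraries alone both were called (adjusted p = 0.0288 and 0.0252). The calls among 10 genes of the cytosolic NADH shuttles (Slc25a13, 0.40 ± 0.0839) and among 19 genes of the TCA cycle and itaconate synthesis (Acod1, the itaconate-making enzyme, 0.87 ± 0.206) were 1 each, both higher. The Slc25a13 call ended without KO replicate 1 or 3 or WT replicate 2 or 3 (adjusted p = 0.0728 to 0.0979) and with the stromal covariate (adjusted p = 0.0671), and that of Acod1 without any 1 library except WT replicate 1 (adjusted p = 0.0577 to 0.2). Of 36 nuclear-encoded subunits of the respiratory chain, with a median of 0.07, limma, edgeR and DESeq2 called 0, and 1 had an unadjusted p under 0.05. The 7 mitochondrially encoded transcripts tested gave 0 calls by these 3 tools and at an unadjusted p under 0.05.

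Amino acid and stress genes showed a few strong increases. Of 35 genes on a list of ATF4 targets and amino acid stress, 5 were higher and 0 lower, with a median of 0.22, and 4 or 5 were called when a library was left out. Slc6a9, a glycine transporter, had 91.4, 69.3 and 112 in KO and 10.7, 18.04 and 19.1 in WT libraries (2.45 ± 0.262, limma, adjusted p = 3.29e-05). Phgdh, which starts serine synthesis, had 351, 316 and 421 in KO and 132, 134 and 169 in WT libraries (1.32 ± 0.166, adjusted p = 0.000206). Atf5, a stress-induced transcription factor, had 3045, 2375 and 3179 in KO and 1435, 1352 and 1446 in WT libraries (1.01 ± 0.13, adjusted p = 0.000269). Slc7a11 is also on this list. Its partner chain Slc3a2 changed by 0.34 ± 0.0737, a call that ended without any 1 library except KO replicate 2 (adjusted p = 0.062 to 0.12). Ass1, which makes argininosuccinate from citrulline, was the single call among 14 genes of arginine metabolism, with 1019, 1052 and 1118 in KO and 475, 253 and 211 in WT libraries (1.85 ± 0.257, adjusted p = 0.00053).

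Among 24 heat shock and folding genes 3 were higher, with a median of -0.003, so the calls concerned single genes. Hspa1b, an inducible Hsp70 gene, had 230, 145 and 185 in KO and 55.5, 56.8 and 49.4 in WT libraries (1.75 ± 0.242, limma, adjusted p = 0.000516). Its near-identical copy Hspa1a, with which it can share reads, changed by 0.90 ± 0.194 and Hsph1, an Hsp70 partner, by 0.33 ± 0.0737. The calls of Hspa1a and Hsph1 ended, with adjusted p of up to 0.15, without KO replicate 1 or 3 or WT replicate 2 or 3, and that of Hsph1 also without WT replicate 1 and with the stromal covariate (adjusted p = 0.0905). Of 18 p53 targets 3 were higher and 0 lower, and 16 had a positive change, with a median of 0.39. Mdm2, the ubiquitin ligase of p53, had 6977, 6066 and 6786 in KO and 4551, 4445 and 4384 in WT libraries (0.57 ± 0.0813, adjusted p = 0.00073). Cdkn1a, the cell cycle inhibitor p21, had 5935, 6132 and 6908 in KO and 3980, 3721 and 3306 in WT libraries (0.79 ± 0.187, adjusted p = 0.0348), a call that ended without any 1 of the 6 libraries (adjusted p = 0.062 to 0.171). Mdm2 lies within 2 Mb of Lyz2, where 3 of 25 genes tested were called (Mdm2 and Dyrk2 higher, Lyz1 lower). The Dyrk2 call (0.45 ± 0.0931) ended without KO replicate 2 or 3 or WT replicate 2 or 3 (adjusted p = 0.0532 to 0.0863).

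The largest increases fell outside these lists. Serpinb9b, of the granzyme-inhibitor family, had 363, 197 and 485 normalized counts in the KO libraries, against 25.3, 9.02 and 12.5 in the WT libraries (4.42 ± 0.395, limma, adjusted p = 3.89e-06). Its relative Serpinb9 had 896, 786 and 999 in KO and 464, 424 and 524 in WT libraries (0.92 ± 0.106, adjusted p = 8.91e-05). On a list of serpins of clades A3 and B 3 of the 10 tested were higher. The list does not hold every serpin of these clades that was called higher. Reads shared between such paralogs were not resolved.

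Other large increases were spread over genes of different kinds. Met, the receptor of hepatocyte growth factor, had 212, 79.7 and 142 in KO and 16.6, 7.22 and 13.2 in WT libraries (3.41 ± 0.42, limma, adjusted p = 0.000174). Ednrb, an endothelin receptor, had 515, 657 and 585 in KO and 52.6, 62.2 and 75.7 in WT libraries (3.19 ± 0.234, adjusted p = 4.07e-07). The KO libraries of Met ranged more widely than those of Ednrb, and both genes were clear of WT in all 3. Procr, the endothelial protein C receptor, had 1098, 740 and 1196 in KO and 272, 221 and 184 in WT libraries (2.15 ± 0.293, adjusted p = 0.000462). Flrt3, an adhesion protein, had 215, 93.5 and 216 in KO and 39.0, 22.6 and 19.1 in WT libraries (2.62 ± 0.416, adjusted p = 0.00177). Uchl1, a ubiquitin hydrolase best known from neurons, had 1544, 1409 and 1613 in KO and 274, 198 and 185 in WT libraries (2.81 ± 0.2, adjusted p = 3.43e-07). Among the large increases Ndrg4 (3.16 ± 0.387) and Ndrg2 (1.85 ± 0.265), of a common family, and Epdr1 (1.85 ± 0.252) also held whichever library was left out.

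Some cell adhesion and matrix genes were higher, beside the positive changes of the stromal markers given above. Of 17 integrin genes 3 were higher and 0 lower, with a median of 0.29. Itgb8, a chain of a receptor that activates TGF-beta, had 56.1, 54.6 and 65.3 in KO and 4.87, 9.92 and 9.88 in WT libraries (2.75 ± 0.259, limma, adjusted p = 5.73e-06). Itgb7 had 3056, 2179 and 3897 in KO and 1354, 696 and 626 in WT libraries (1.82 ± 0.36, adjusted p = 0.0106), a call that ended without KO replicate 1 or 3 or WT replicate 2 or 3 (adjusted p = 0.0525 to 0.076). Of 28 matrix and matrix protease genes 4 were higher and 0 lower, with a median of 0.75. Mmp13, a collagenase, had 786, 547 and 962 in KO and 202, 189 and 170 in WT libraries (1.99 ± 0.342, adjusted p = 0.00371).

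Mmp12, the macrophage elastase, had 111800, 70079 and 90297 in the KO libraries, against 49610, 51084 and 42684 in the WT libraries (0.90 ± 0.211, limma, adjusted p = 0.0319), a call that ended without any 1 library except KO replicate 2 (adjusted p = 0.0727 to 0.189). Cav1, the caveolin gene, had 512, 370 and 709 in KO and 103, 59.5 and 57.3 in WT libraries (2.84 ± 0.545, adjusted p = 0.00903), a call that ended without KO replicate 3 or WT replicate 2 or 3 (adjusted p = 0.0537 to 0.0619). With the stromal score as a covariate the changes were 2.65 for Itgb8, 2.52 for Itgb7, 2.37 for Mmp13 and 3.77 for Cav1, all called (adjusted p = 0.000141, 0.000298, 0.00282 and 0.000838), and 0.87 for Mmp12, which was not called (adjusted p = 0.0912). In bulk RNA a difference in the number of cells of a type and a difference in RNA per cell cannot be told apart.

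**Figure D3:**
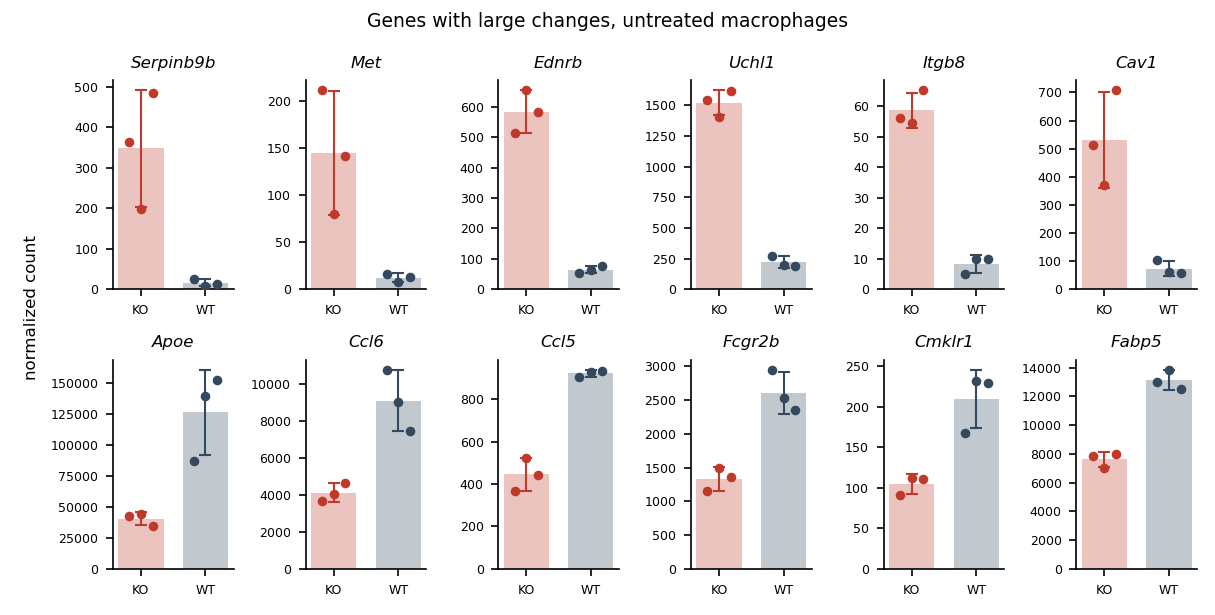
Normalized counts of 6 genes called higher (top row) and 6 called lower (bottom row) in untreated macrophages, KO left of WT in each panel. Points are the 3 libraries per group, bars are means and error bars are SD. The groups do not overlap in any panel, and Apoe had 34446 to 44650 in KO and 87229 to 152580 in WT libraries.

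The genes called lower were fewer and changed less. Of 23 CC and CXC chemokines 3 were lower and 1 higher, with 14 positive changes and a median of 0.06. Ccl6 had 3662, 4066 and 4642 normalized counts in the KO libraries, against 10757, 9019 and 7455 in the WT libraries (-1.13 ± 0.131, limma, adjusted p = 9.12e-05). Ccl5 had 368, 524 and 444 in KO and 903, 930 and 933 in WT libraries (-1.06 ± 0.179, adjusted p = 0.00319). Both were called whichever library was left out. Ccl8 (lower) and Ccl22 (higher) had means under 20 in both genotypes, and their calls ended without KO replicate 3 or WT replicate 3, that of Ccl8 also without KO replicate 1 or WT replicate 2 and that of Ccl22 without KO replicate 2 (adjusted p of up to 0.27 and 0.125). Neither was called by edgeR (adjusted p = 0.227 and 0.174), with a pseudocount of 5 or in the untreated libraries alone, nor was Ccl22 with the stromal covariate (adjusted p = 0.126). Among 17 chemoattractant receptors Cmklr1, the chemerin receptor, had 90.5, 113 and 111 in KO and 168, 232 and 229 in WT libraries (-0.98 ± 0.156, adjusted p = 0.00177).

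Fc receptors were the next group, with 3 of 19 genes lower and 0 higher. Fcgr2b, the inhibitory IgG receptor, had 1148, 1501 and 1368 in KO and 2952, 2528 and 2352 in WT libraries (-0.96 ± 0.132, limma, adjusted p = 0.000462). The KO libraries did not overlap the WT libraries, and this call held whichever library was left out. Fcgr3, an activating IgG receptor, changed by -0.40 ± 0.0847 and Fcgrt, the neonatal Fc receptor, by -0.40 ± 0.0965. Their calls ended without KO replicate 1 or WT replicate 1 or 2, that of Fcgr3 also without KO replicate 2 and that of Fcgrt without KO replicate 3 or WT replicate 3 (adjusted p of up to 0.1185 and 0.235), and that of Fcgrt also with the stromal covariate (adjusted p = 0.112). Cd22, a sialic acid-binding inhibitory receptor known from B cells, had 224, 231 and 175 in KO and 373, 412 and 387 in WT libraries (-0.90 ± 0.157, adjusted p = 0.004).

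Lipid genes were called in both directions. Of 32 genes of cholesterol and fatty acid synthesis 2 were higher and 0 lower, Me1 and Acss2, which makes acetyl-CoA from acetate (1.02 ± 0.207, limma, adjusted p = 0.013). Of the 32 genes 9 had a positive and 23 a negative change, with a median of -0.07. The Acss2 call ended without KO replicate 1 or 3 or WT replicate 2 or 3 (adjusted p = 0.0589 to 0.0922). Of 17 genes of PPAR-gamma and lipid storage 1 was lower (Fabp5). Of 23 genes of fatty acid oxidation limma and edgeR called 0 and DESeq2 called 1, and 2 had an unadjusted p under 0.05. Apoe, the apolipoprotein that macrophages secrete to carry cholesterol, had 42888, 44650 and 34446 in the KO libraries, against 87229, 139380 and 152580 in the WT libraries (-1.60 ± 0.344, limma, adjusted p = 0.0188). The KO libraries did not overlap the WT libraries, and the call ended without KO replicate 1 or 3 or WT replicate 2 or 3 (adjusted p = 0.0647 to 0.112). Of 15 genes of the LXR and cholesterol efflux list 2 were lower, Apoe and Pltp, a phospholipid transfer protein (-0.65 ± 0.152), and the Pltp call ended without any 1 library except KO replicate 2 (adjusted p = 0.0592 to 0.158). Fabp5, a fatty acid-binding protein, had 7844, 7028 and 7966 in KO and 13033, 13857 and 12528 in WT libraries (-0.79 ± 0.117, adjusted p = 0.000964). Rxra, the shared partner of LXR and PPAR receptors, had 1334, 1310 and 1513 in KO and 2071, 2053 and 2105 in WT libraries (-0.59 ± 0.087, adjusted p = 0.000984). Abcd2, a peroxisomal transporter of fatty acids, changed by -0.65 ± 0.113 (adjusted p = 0.00418). Fabp5, Rxra and Abcd2 were called whichever library was left out.

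Among 27 scavenger and efferocytosis receptors 2 were lower and 3 higher, all 5 with calls that ended without at least 1 library. Mertk, the receptor for apoptotic cells, had 1327, 1584 and 1744 in KO and 2578, 2607 and 2654 in WT libraries (-0.76 ± 0.15, limma, adjusted p = 0.0103, and 0.0531 to 0.0779 without KO replicate 1 or WT replicate 3, and 0.0756 with the stromal covariate). Stab1 had 8690, 9976 and 8538 in KO and 12048, 13971 and 15955 in WT libraries (-0.62 ± 0.145, adjusted p = 0.0323, and 0.129 to 0.186 without KO replicate 1 or 3 or WT replicate 2 or 3). Clec4n, a C-type lectin, had 1772, 2200 and 3228 in KO and 1125, 740 and 775 in WT libraries (1.43 ± 0.303, adjusted p = 0.0175, and 0.0922 to 0.12 without KO replicate 3 or WT replicate 2 or 3). In each of the 3 genes the groups were nonetheless separate. Entpd1, the ectoenzyme CD39 that degrades extracellular ATP, was lower with less spread, at 3008, 3686 and 3419 in KO and 5010, 5079 and 5030 in WT libraries (-0.58 ± 0.0764, adjusted p = 0.000313), and its call held whichever library was left out. Mpeg1, a pore-forming protein of macrophages, had 137090, 144100 and 150260 in KO and 204260, 192450 and 203980 in WT libraries (-0.48 ± 0.113, adjusted p = 0.0341), a call that ended without any 1 of the 6 libraries (adjusted p = 0.0891 to 0.161) and with the stromal covariate (adjusted p = 0.1003), and after quantile normalization its change was -0.079 (adjusted p = 0.919).

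Most immune lists gave no call in untreated cells. By limma 0 of 34 type I interferon-stimulated genes, 0 of 18 guanylate-binding and immunity-related GTPases, 0 of 25 MHC presentation genes, 0 of 28 cytokines and growth factors, 0 of 25 Toll-like receptors and adaptors, 0 of 19 inflammasome genes and 0 of 20 complement genes were called. At an unadjusted p under 0.05 these lists held 2, 1, 1, 4, 3, 2 and 5 genes in the same order, and both edgeR and DESeq2 called 1 of the cytokines and 1 of the Toll-like receptor genes and 0 of the others. The lists do not hold every gene of a kind. Outside the cytokine list Il1f9, which encodes IL-36 gamma, was called higher (4.33 ± 0.396, limma, adjusted p = 4.74e-06), as were some other cytokine and growth factor genes. Markers of polarization gave 4 calls. Of 19 classical activation markers 1 was higher (Acod1) and 1 lower (Ccl5), and of 20 alternative activation markers 2 were higher (Tgm2 and Ccl22) and 0 lower. Tgm2, a transglutaminase, had 2750, 2938 and 3406 in KO and 1906, 1126 and 1196 in WT libraries (1.14 ± 0.213, limma, adjusted p = 0.00742), a call that ended without KO replicate 3 or WT replicate 2 or 3 (adjusted p = 0.0518 to 0.057). Nos2, the inducible nitric oxide synthase, had 53.4, 36.4 and 40.8 in KO and 41.9, 38.8 and 38.2 in WT libraries (adjusted p = 0.942), and Cxcl9 had 23.5, 20.8 and 35.9 in KO and 26.3, 9.92 and 34.9 in WT libraries (adjusted p = 0.95). Mrc1, the mannose receptor, was separate between the groups, with 6710, 7811 and 5776 in KO and 10316, 12331 and 14060 in WT libraries, and not called (-0.85 ± 0.249, adjusted p = 0.0999), but it was called in the untreated libraries alone (adjusted p = 0.0171). Arg1 and Chil3 were at most 4.87 in any untreated library.

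Cell cycle genes gave few calls. Of 30 genes of mitosis and the G2/M phase 2 were higher and 0 lower, and 29 had a positive change, with a median of 0.42. Ccnb1, cyclin B1, had 417, 433 and 402 in KO and 281, 253 and 271 in WT libraries (0.64 ± 0.155, limma, adjusted p = 0.04), and Tpx2, a spindle factor, changed by 0.44 ± 0.0944 (adjusted p = 0.02). The Ccnb1 call ended without any 1 library (adjusted p = 0.0846 to 0.191) and with the stromal covariate (adjusted p = 0.0547), and the Tpx2 call without KO replicate 1 or 2 or WT replicate 2 or 3 (adjusted p = 0.0761 to 0.145). In the untreated libraries alone 12 of the 30 genes were called higher. Of 32 genes of DNA replication and S phase 13 had a positive and 19 a negative change, with a median of -0.03. Limma, edgeR and DESeq2 called 0 of these 32, and 2 had an unadjusted p under 0.05.

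**Figure D4:**
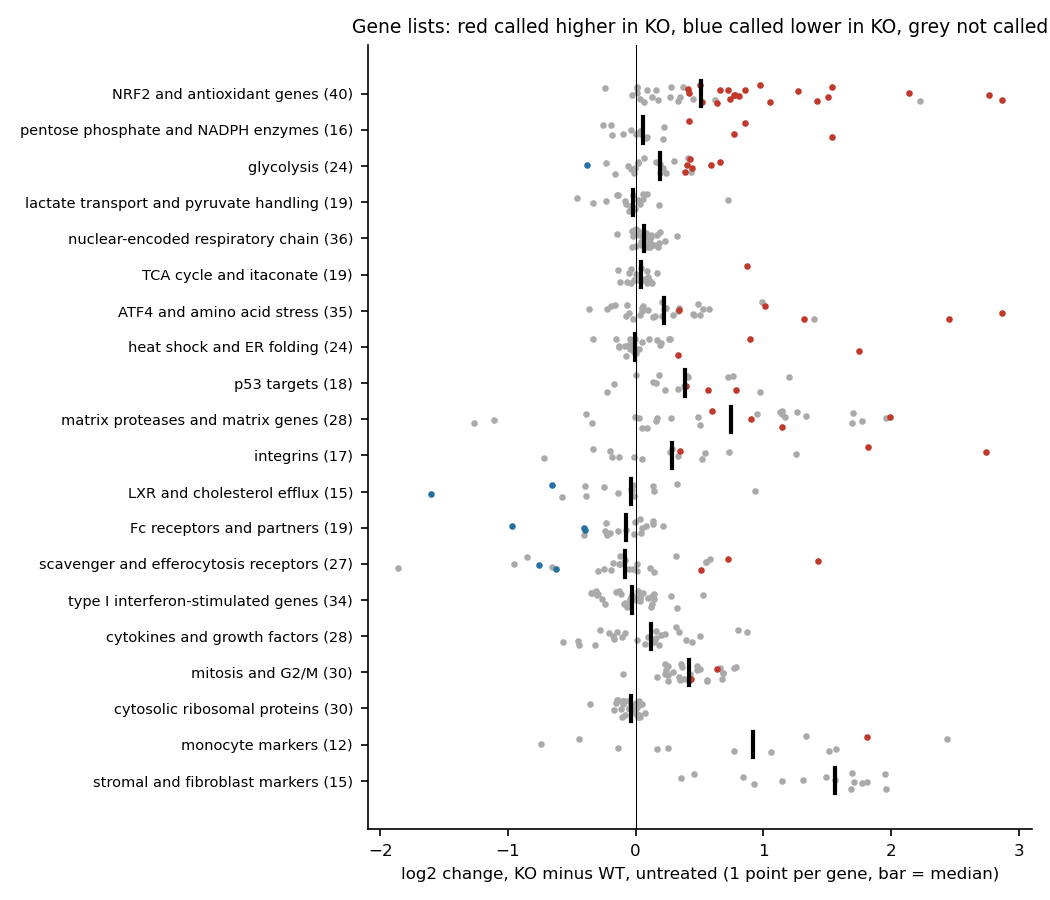
Log2 change of KO minus WT in untreated macrophages for the tested genes of 20 lists, 1 point per gene, with red for genes called higher in KO, blue for genes called lower and grey for genes not called. Black bars are medians, and the list size is in brackets. The antioxidant list has 21 red points of 40 and a median of 0.51, and the stromal markers have a higher median, 1.56, with no call.

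Markers of monocytes were higher in level, mostly through 1 gene. They summed to 3474, 4501 and 3232 in the KO libraries and 1290, 1371 and 1361 in the WT libraries (2-sided exact permutation test, p = 0.1, the smallest possible), of which Cx3cr1, the fractalkine receptor, gave 2495, 3068 and 2243 in KO and 680, 742 and 786 in WT libraries. Cx3cr1 was the single call among 12 monocyte markers tested (1.81 ± 0.36, limma, adjusted p = 0.0106) and the call ended without KO replicate 2 or WT replicate 2 (adjusted p = 0.0537 to 0.0547) and with the stromal covariate (adjusted p = 0.0594). The median change of the 12 markers was 0.92. Among neutrophil markers 1 of 4 tested, Csf3r, was lower (-0.61 ± 0.133, adjusted p = 0.0206), and its call ended without KO replicate 1 or any 1 WT library (adjusted p = 0.0592 to 0.143) and with the stromal covariate (adjusted p = 0.0671). The other 3 neutrophil markers had a positive change and were not called, and the median of the 4 was 0.56. None of the tested markers of dendritic cells (11), mast cells (3), T and NK cells (3), B cells (2), erythroid cells (2) or endothelium (5) was called by limma. At an unadjusted p under 0.05 there were 5, 1, 1, 1, 0 and 2 of them in the same order, edgeR called 1 (T and NK cells) and DESeq2 called 2 (T and NK cells, endothelium). The part of these markers in the genotype difference was not tested.

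The same animals allow the untreated difference to be set beside that with IFN-gamma, where 27.9% of genes were called between KO and WT, and that with IL-4, where 6.59% were called. Of the 208 genes higher in untreated KO cells, 203 had the same sign with IL-4, 132 being called in the same direction and 0 in the other. With IFN-gamma 171 had the same sign, 127 were called in the same direction and 12 in the other. For the 75 genes lower in untreated KO cells these counts were 74, 55 and 0 with IL-4 and 58, 35 and 7 with IFN-gamma. Among all 14288 genes 941 were called in either direction with IL-4, 494 of them higher, and 3980 with IFN-gamma, 2038 of them higher. The share of all genes with the same sign was not computed. Because the same animals gave the libraries of every treatment, shared signs and calls are not independent support.

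The difference between treatments was tested itself, as an interaction. Of the libraries it rests on, WT replicate 1 with IFN-gamma had a chi-square per gene of 60.8 and 67.1 to the others of its group. Pairs of WT libraries with IL-4 were similarly far apart, at 46.5 to 66.2. The value of 4.72 between WT replicates 2 and 3 with IFN-gamma was the lowest of any pair within a group. The next lowest was 11.5, in untreated KO. Why replicates 2 and 3 were so alike was not tested, and the interactions with IFN-gamma rest on them. Without WT replicate 1 with IFN-gamma the interaction was called for 1233 genes, and of the named genes with an interaction called 33 were called and 6 were not (Ldha, Lyz2, Gclm, Blvrb, Slc2a1 and Mpeg1). Against IL-4 it was called for 1 gene of 14288 (0.007%), Gm6192, a gene model with a change of -0.12 untreated and 2.19 with IL-4, and DESeq2 called 21. WT replicate 2 with IL-4 held 9.77 M reads and 15439 detected genes. The other IL-4 libraries held 28.4 to 49.5 M reads and 18539 to 19703 detected genes. No fit left WT replicate 2 with IL-4 out, so its part in the low number of calls was not tested. Against IFN-gamma it was called for 1307 genes (9.15%). Of the 283 genes called in untreated cells, 91 had an interaction called and 192 had none.

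Several antioxidant increases were larger in untreated cells than with IFN-gamma. For Prdx1 the change was 1.27 untreated, 0.48 with IFN-gamma and 1.36 with IL-4, a difference of 0.79 ± 0.162 between untreated and IFN-gamma (limma interaction, adjusted p = 0.00518). For Txnrd1 the 3 changes were 0.74, -0.10 and 0.80 (difference 0.84 ± 0.165, adjusted p = 0.00392), and for Gclm 1.50, 0.82 and 1.74 (difference 0.69 ± 0.2, adjusted p = 0.0379). The Gclm interaction was not called without any 1 untreated library except KO replicate 2 (adjusted p = 0.054 to 0.111), nor without WT replicate 1 with IFN-gamma (0.55 ± 0.192, adjusted p = 0.0882), whereas those of Prdx1 and Txnrd1 were called whichever of these was left out. Nqo1 (2.77, 1.90 and 2.61) and Slc7a11 (2.87, 2.34 and 2.56) had no interaction called (adjusted p = 0.156 and 0.559). The antioxidant list as a whole had 21 genes higher in untreated cells, 19 with IFN-gamma and 22 with IL-4.

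Other genes changed in opposite directions. Fabp5 was lower in untreated KO cells (-0.79) and with IL-4 (-0.74) but higher with IFN-gamma (0.88), a difference of -1.67 ± 0.165 (limma interaction, adjusted p = 1.83e-05). Plbd1, a phospholipase B-like protein, was higher in untreated KO cells (1.41), lower with IFN-gamma (-0.94) and not called with IL-4 (0.28, difference to IFN-gamma 2.35 ± 0.307, adjusted p = 0.000144). Stab1 was at -0.62 untreated, 0.81 with IFN-gamma and -0.72 with IL-4. Adra1a, an adrenergic receptor, was at -0.73, 1.27 and -0.73, and its untreated call ended without any 1 of the 6 libraries (adjusted p = 0.0977 to 0.182) and with the stromal covariate (adjusted p = 0.195), as that of Stab1 did without 4 of them. Mmp12 and Ednrb were higher in all 3 treatments, with larger changes under IFN-gamma (3.34 and 4.999) than untreated (0.90 and 3.19), differences of -2.44 ± 0.298 and -1.81 ± 0.331 (adjusted p = 8.66e-05 and 0.00238). Apoe was lower in all 3, at -1.60, -1.66 and -1.71.

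**Figure D5:**
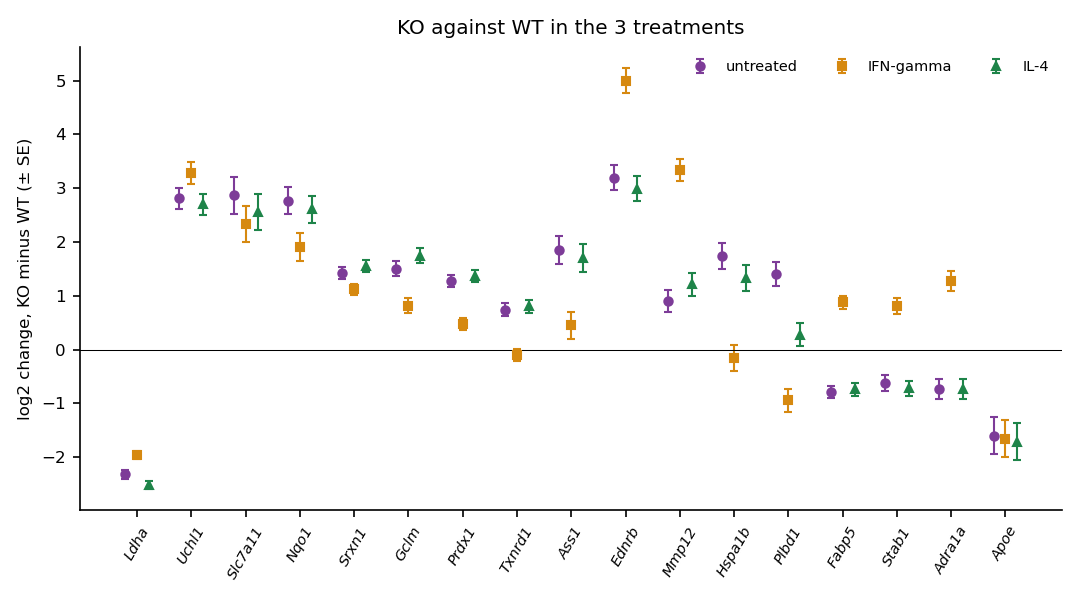
Log2 change of KO minus WT ± SE for 17 genes called in untreated macrophages, in the untreated (circles), IFN-gamma (squares) and IL-4 (triangles) libraries. For Fabp5, Stab1 and Adra1a the untreated and IL-4 changes lie below 0 and the IFN-gamma change above it, and for Ednrb and Mmp12 the IFN-gamma change (4.999 and 3.34) is the largest of the 3.

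Called genes were spread over the genome. On the autosomes and the X chromosome 1.31 to 3.04% of the genes tested were called. Within 2 Mb of Ldha 3 of 72 genes tested were called (4.17%), all lower: Dbp, a clock-controlled transcription factor, with 242, 297 and 332 in KO and 620, 556 and 572 in WT libraries (-1.01 ± 0.223, limma, adjusted p = 0.0217), Fcgrt and Tmem86a. The Dbp call ended without any 1 library except KO replicate 3 (adjusted p = 0.0599 to 0.14) and with the stromal covariate (adjusted p = 0.138), that of Tmem86a (-0.36 ± 0.0861) without any 1 of the 6 (adjusted p = 0.0846 to 0.2) and that of Fcgrt as given above. Dbp was the single call among 16 clock genes. Within 2, 5 and 10 Mb of Lyz2, leaving out Lyz2 itself, 12, 6.82 and 6.25% of 25, 44 and 80 genes tested were called. Around Ldha the shares within 5 and 10 Mb were 3.67 and 2.90%, of 109 and 138 genes tested. The share over all genes was 1.98%. Whether the neighbours of Ldha or Lyz2 differ through the locus was not tested.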

How the data were processed

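The members of this comparison, the gene lists and the tests were chosen with earlier results of these data known. STAR 2.5, HTSeq 0.6 and the GRCm38 build are named in the submitters' processing notes. The library kit was directional, but whether counting used strand was not given in the sources used here, so overlapping antisense genes are uncertain. The deposited signal is a normalized count per gene and library, which the authors obtained by dividing read counts by a size factor. Whole reads were recovered for 100% of values (tolerance 0.1) and served edgeR 4.0.16 and DESeq2 1.42.0 as alternatives. Genes with at least 10 in at least 3 of 18 libraries were kept, 14288 in all. Log2(normalized count + 1) went into limma 3.58.1 (R 4.3.3; trend option, 2-sided tests) with 6 group means, leaving 12 residual degrees of freedom. Sharing the spread over 18 libraries assumes that it is alike in all groups. The fit also treats the 18 libraries as independent, although the 6 animals each gave a library to every treatment. The correlation within animals was 0.176, and a random effect of animal was used only as an alternative. On simulated data 93 of 100 genes changed 2-fold and 99 of 100 changed 4-fold were recovered, with 5 false calls. The simulated libraries were independent, with the same dispersion of a gene in every group and no effect of animal or treatment. Only genes with a mean of at least 50 were changed. The simulation therefore meets assumptions that the real libraries may not, and does not measure recovery or false calls among the real genes.

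Replicates are separate animals by their codes. Untreated replicates differed by a chi-square of 11.5 to 21.6 per gene, so none was a duplicate. Leaving out WT replicate 1 with IFN-gamma was an alternative chosen after seeing the data. Genes named are Ldha, Ldhb, Lyz2 and Lyz1, the 15 largest increases and decreases with a mean of at least 100 and no overlap, the smallest adjusted p-values, the most abundant called genes, up to 5 called genes per list, 7 polarization markers, and up to 8 with the smallest interaction p. The text gives a part of them. Gclc, Gclm, Txnrd1, Prdx6, Blvrb, Pfkp, Pgk1, Pgam1, Tkt and others beyond these limits were named after their values were seen.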

Additional observations from a re-analysis of the deposited data

Results flagged for a closer look

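For 39 of the genes named here the difference between KO and WT itself differed between untreated and IFN-gamma libraries, by a limma interaction at an adjusted p under 0.05. The values below are the untreated change minus the IFN-gamma change on the log2 scale. Of the 39, 25 were called whichever untreated library was left out, and 14 were not. Without WT replicate 1 with IFN-gamma 33 were called and 6 were not (Ldha, Lyz2, Gclm, Blvrb, Slc2a1 and Mpeg1). None of the named genes called in untreated cells differed in this way between untreated and IL-4 libraries, where the test of the difference called 1 gene in all. That test included WT replicate 2 with IL-4, which held 9.77 M reads.

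Among antioxidant and NADPH genes the untreated change was above the IFN-gamma change for Gstp1 (1.09), Txnrd1 (0.84), Prdx1 (0.79), Gclm (0.69), G6pdx (0.49) and Blvrb (0.45), and below it for Gclc (-0.48). Glycolytic genes with a positive value were Pfkp (0.80), Pgk1 (0.51) and Slc2a1 (0.42). Among amino acid and stress genes they were Hspa1b (1.91), Slc6a9 (1.51), Ass1 (1.40) and Hspa1a (1.21), while Atf5 had -1.04.

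Genes of the cell surface, matrix and protease inhibitors fell on both sides. Positive values were those of Clec4n (2.08), Epdr1 (1.76), Procr (1.53), Fcgrt (1.01), Serpinb9 (0.68) and Fcgr2b (0.61). Negative values were those of Mmp12 (-2.44), Cdcp1 (-2.01), Adra1a (-2.00), Ednrb (-1.81), Stab1 (-1.43), Slc6a12 (-1.36), Itgb8 (-1.27), Cd22 (-1.14), Entpd1 (-0.68) and Mpeg1 (-0.52). Among the remaining genes Plbd1 had 2.35, Abcd2 1.21, Ripk3 1.06, Tpx2 0.45, Fabp5 -1.67 and Rxra -0.53.

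Ldha (-0.36) and Lyz2 (0.51) were among the 39. Both were lower in KO in both treatments, and these interactions were not called without 4 of the 6 untreated libraries each (adjusted p of up to 0.128 and 0.102). The other interactions not called without at least 1 untreated library were those of Gclm, Gclc, Blvrb, Slc2a1, Slc6a9, Ass1, Procr, Itgb8, Fcgr2b, Mpeg1, Tpx2 and Cdcp1.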

How the results depend on the processing

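The direction of every called gene named here was the same under all 20 alternatives, and 55 of the 93 were called in each of them. Calls were lost mainly when 1 untreated library was left out, for 14 to 34 named genes, as given beside them. With the stromal score as a covariate 14 were lost: Adra1a, Aldoa, Ccl22, Ccnb1, Csf3r, Cx3cr1, Dbp, Fcgrt, Hsph1, Mertk, Mmp12, Mpeg1, Pgam1 and Slc25a13. Ccnb1 and Tmem86a were lost without a filter (adjusted p = 0.0553 and 0.0515) and Adra1a with a random effect of animal (0.0547). Without WT replicate 1 with IFN-gamma, which was left out after seeing the data, 369 genes were called (258 higher, 111 lower), 282 of the 283 among them, and no named call was lost. The Ldha change ranged from -2.43 to -2.26.

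The 283 calls (208 higher, 75 lower) became 971 (616 and 355) in the untreated libraries alone and 608 (414 and 194) with DESeq2. Lower calls were 120 after quantile normalization and 132 with the stromal covariate. Leaving out 1 untreated library gave 124 to 209 calls, 97 to 165 higher and 23 to 54 lower. The fewest came without KO replicate 3 (124), WT replicate 2 (127), WT replicate 3 (129) and KO replicate 1 (135). The cause was not tested beyond the smaller number of samples.

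The interaction with IFN-gamma was called for 760 to 1016 genes with 1 untreated library left out, for 1233 without WT replicate 1 with IFN-gamma, 1934 with a random effect of animal, which the 3 treatments share, and 1833 with DESeq2. That with IL-4 was called for 1 to 2 genes with 1 untreated library left out, 3 with a pseudocount of 5, 2 without a filter, 2 after quantile normalization, 4 with a random effect of animal and 21 with DESeq2. Among genes not called, signs turned when 1 library was left out for Nos2 (-0.038 to 0.23), Cxcl9 (-0.21 to 0.65), Nfe2l2 (-0.014 to 0.049) and Sod1 (-0.062 to 0.055), and with the stromal covariate for Sod1 (-0.10) and Tkt (-0.14).

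KO and WT animals that share a replicate number correlated at -0.066, 0.104 and -0.055 in their deviations from the group means, so the numbers do not pair the samples. With the replicate block 378 genes were called (268 higher, 110 lower), no named call was lost, and the interaction with IL-4 was called for 2 genes.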

Other observations

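Several genes called whichever untreated library was left out stand outside the gene lists or below the level the naming rule asks for, and were chosen after their values were seen. Il1f9, which encodes the cytokine IL-36 gamma, had 86.0, 65.8 and 68.6 normalized counts in the KO libraries, against 2.92, 4.51 and 1.32 in the WT libraries (4.33 ± 0.396, limma, adjusted p = 4.74e-06). Cdcp1, a transmembrane glycoprotein, had 90.5, 79.7 and 85.7 in KO and 9.74, 15.3 and 9.22 in WT libraries (2.83 ± 0.365, adjusted p = 0.00028). In both genes all 3 KO libraries lay far above all 3 WT libraries. Gbe1, the glycogen branching enzyme, had 1183, 971 and 1323 in KO and 617, 534 and 665 in WT libraries (0.93 ± 0.125, adjusted p = 0.000404). Panx1, a channel that releases ATP, had 1169, 1095 and 1281 in KO and 682, 590 and 654 in WT libraries (0.88 ± 0.123, adjusted p = 0.000535), while Entpd1, which degrades extracellular ATP, was lower in KO as given above. Ripk3, a kinase of necroptosis, had 377, 389 and 421 in KO and 290, 272 and 232 in WT libraries (0.58 ± 0.106, adjusted p = 0.00583).

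Esd, esterase D, which hydrolyses S-formylglutathione, had 13620, 11453 and 14236 in the KO libraries and 7495, 6507 and 6362 in the WT libraries (0.95 ± 0.138, limma, adjusted p = 0.000852). Slc6a12, a betaine and GABA transporter, had 1805, 1488 and 1742 in KO and 964, 723 and 624 in WT libraries (1.14 ± 0.175, adjusted p = 0.00146). Angptl2, a secreted angiopoietin-like protein, had 4654, 3560 and 4430 in KO and 2426, 1976 and 1853 in WT libraries (1.02 ± 0.14, adjusted p = 0.000516). For these 3 genes as well the groups did not overlap.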
